A study of Mus musculus with 6 samples.

Results

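The small leucine-rich proteoglycans are secreted matrix proteins built around a core of leucine-rich repeats, and 8 genes of the family were chosen by symbol from the 24940 genes of the exon count table. The members are Bgn, Dcn and Aspn (class I), Prelp, Lum and Fmod (class II), Ogn (class III) and Podn (class V). The 6 libraries hold polyadenylated RNA of primary hepatic stellate cells, liver pericytes that store vitamin A, isolated from female mice of the C57BL/6JBomTac strain. In 3 libraries, OCA A to C, the cells were exposed for 6 h to 10 µM obeticholic acid (OCA), a bile acid derivative and agonist of the nuclear receptor FXR. In the other 3, DMSO A to C, they received the vehicle dimethyl sulfoxide (DMSO) diluted 1:1000. Both were added to the existing medium 2 days after isolation, so the controls are cells that were also plated on culture dishes. The labels give no genetic change, and nothing in them tells if replicate libraries are separate cultures or animals. Each p-value below thus reflects spread among libraries that may be technical.

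Small leucine-rich proteoglycans bind fibrillar collagen through their concave face and set the spacing and diameter of the fibrils. Decorin and biglycan carry chondroitin or dermatan sulfate chains, lumican and fibromodulin can carry keratan sulfate, and several members bind TGF-beta. Released from the matrix, biglycan and decorin also act as ligands of Toll-like receptors. In the liver these genes are expressed mainly by stellate cells and portal fibroblasts.

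Column totals ranged from 12260882 to 16336240 counts, and a floor of 3 counts corresponded to between 0.181 and 0.251 CPM, that is counts per TMM-scaled library total, per library. Intervals from counts and this floor cover counting error only. Stellate cell markers were well represented: all 12 were tested, and their summed level was 2202 to 2371 CPM in DMSO and 2001 to 2385 CPM in OCA. Of these 12, 2 rose (Vipr1 and Lhx2) and 2 fell (Reln and Rgs5) under OCA. Over all tested genes 2.18% rose and 3.03% fell. The call of Vipr1 held in all 19 alternatives, while that of Lhx2 was lost when any library but OCA B was left out. The call of Rgs5 was lost when OCA A or C or either of DMSO A and B was left out, and that of Reln when OCA A or C or DMSO A was. Neither passed with robust estimation, nor Reln with DESeq2. Of 9 tested markers of activated stellate cells 0 passed the test (2955 to 3402 CPM in DMSO and 2750 to 3331 CPM in OCA). Without OCA B, however, 4 were lower, beside 5.90% of all tested genes. Without OCA B and DMSO A together 3 were, beside 4.75%. Markers of portal and other fibroblasts, which also make these proteoglycans, summed to between 50.8 and 60.9 CPM in DMSO and between 50.4 and 61.7 CPM in OCA. Most of that came from Ly6a and Gas6, while Thy1, Mfap4 and Mgp had 0 counts in every library. Summed markers of hepatocytes, leukocytes, endothelium and mesothelium were between 1.58 and 15.3 CPM per library and list, and 0 of the 2 tested genes in each list passed. The 6 markers of cholangiocytes, the bile duct cells, summed to between 8.57 and 9.63 CPM in DMSO and between 11.7 and 14.8 CPM in OCA, without overlap. Of these, 3 were tested and 1 rose, Sox9, from 2.05, 2.05 and 3.51 CPM in DMSO A, B and C to 10.5, 6.52 and 6.05 CPM in OCA A, B and C (log2 fold change 1.60, SE 0.30, adjusted p = 0.00322), in all 19 alternatives, while Krt7 had 0 counts. The 2 tested cholangiocyte markers not called were Krt19 (0.654 CPM in DMSO and 0.719 CPM in OCA, adjusted p = 0.922) and 1 with a log2 fold change of -0.46. Sox9 is part of the cholangiocyte sum, so that sum does not show a rise of the markers other than Sox9. The part of all these marker levels in the results below was not tested. OCA B stood apart from the other OCA libraries for Bgn and Dcn. It had the highest OCA level in 4 of the 6 tested members (Dcn, Bgn, Ogn and, by a small margin over OCA A, Prelp), where it was the highest OCA library in 33.3% of all tested genes. DMSO B was the highest DMSO library in 5 of the 6 (all but Podn), against 34.2% of all tested genes. Counts without OCA B are given beside those that it moved by over 1.5 times. Leaving it out also raised lower calls over all tested genes, from 3.03% to 5.90%. Leaving out OCA A or DMSO A instead left 104 genes lower in each fit, and list counts for those fits are not given.

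Stellate cells expressed 4 of the 8 members at high levels, 2 at low levels and 2 at or near 0. Levels between genes are compared per length, as CPM per kilobase of exon. In DMSO the order was Bgn (235 ± 28.9, SD, n = 3), Prelp (112 ± 14.2), Dcn (105 ± 10.1), Lum (53.0 ± 2.22), Podn (5.23 ± 0.340) and Ogn (3.12 ± 0.454). Fmod, with 0.103 ± 0.0721, came next, and Aspn had 0 counts. By this level over all libraries Bgn ranked 112 among the 12687 genes tested, Prelp 516, Dcn 807, Lum 2022, Podn 9202 and Ogn 10050. Neighbours in the order were separated in DMSO except for Prelp and Dcn, whose ranges overlapped (102 to 128 and 93.0 to 112 CPM per kilobase). Under OCA these were apart, with 117 to 132 CPM per kilobase for Prelp and 72.4 to 106 for Dcn.

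Family genes that are neighbours in the genome differed in level. On mm10 chromosome 10 the plus-strand genes Dcn (NM_001190451, 97479500 to 97518163) and Lum (NM_008524, 97565501 to 97572703) lie 47.3 kb apart with no other gene of the table between them, and both were abundant. Kera and Epyc, the next family genes on that chromosome and textbook products of cornea and cartilage, had 0 counts in all 6 libraries. On chromosome 1 Prelp (NM_054077, 133910304 to 133921401, minus strand) was among the most abundant members, while its family neighbours Fmod (NM_021355, 134037254 to 134048280, plus strand) and Optc were near the floor. On chromosome 13 Aspn (NM_001172481, 49544443 to 49567562) and Ogn (NM_008760, 49608071 to 49624500), both on the plus strand, stand in a row with Ecm2 and Omd, and within the span of Cenpp on the opposite strand. Bgn (NM_007542, 73483601 to 73495936, plus strand) is on chromosome X and Podn (NM_172874, 108014793 to 108032090, minus strand) on chromosome 4. Exons of Prelp overlap those of the antisense gene Gm15851, and the sources used here do not give the strand setting, so reads of this pair cannot be told apart.

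The start regions are shown for the pair of members with the highest level among those with a RefSeq promoter window, and for Aspn, which had no counts. Windows of 300 bases (250 before and 50 from the annotated start, GRCm38.p6) were found for 6 of the 8 members. Each is read 5′ to 3′ on the gene's strand: Bgn from chrX:73483351-73483650 (plus), Prelp from chr1:133921352-133921651 (minus) and Aspn from chr13:49544193-49544492 (plus). Capitals mark matches, on either strand, to the motifs searched.
Bgn: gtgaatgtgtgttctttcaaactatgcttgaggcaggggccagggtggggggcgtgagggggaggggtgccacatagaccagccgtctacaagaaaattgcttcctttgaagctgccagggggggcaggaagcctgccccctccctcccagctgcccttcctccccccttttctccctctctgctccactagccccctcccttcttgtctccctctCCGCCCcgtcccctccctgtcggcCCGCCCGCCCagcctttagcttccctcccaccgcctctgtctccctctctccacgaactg
Prelp: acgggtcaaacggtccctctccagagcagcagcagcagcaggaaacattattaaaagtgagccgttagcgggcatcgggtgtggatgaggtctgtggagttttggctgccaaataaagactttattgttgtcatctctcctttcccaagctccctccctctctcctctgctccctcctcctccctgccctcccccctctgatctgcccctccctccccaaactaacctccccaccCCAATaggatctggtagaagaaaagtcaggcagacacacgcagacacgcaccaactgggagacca
Aspn: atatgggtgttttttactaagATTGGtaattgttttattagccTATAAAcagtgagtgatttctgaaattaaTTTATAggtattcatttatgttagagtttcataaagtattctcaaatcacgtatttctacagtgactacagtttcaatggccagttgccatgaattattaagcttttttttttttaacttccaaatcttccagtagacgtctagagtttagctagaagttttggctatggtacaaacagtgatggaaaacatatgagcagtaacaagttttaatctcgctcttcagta
The Bgn window held 3 GC boxes (GGGCGG), starting at positions -34, -10 and -6 from the annotated start, of which the last overlaps the one before it. A GC box was in 35.7% of all 32851 windows. The Prelp window held 1 CCAAT box (CCAAT, in 37.4% of windows) at position -15. The Aspn window held a pair of TATA boxes (TATAAA, in 13.6% of windows) at -207 and -178 and 1 CCAAT box at -229. G and C made up 63.7% of the Bgn window, 55.3% of the Prelp window and 31% of the Aspn window, against a median of 52.7% over all windows. The other letters searched were the FXR inverted repeat (AGGTCA and its reverse complement with 1 base between them), its half-site AGGTCA, the AP-1 site TGACTCA, the SMAD box GTCTAGAC and the E-box CACGTG, and these 3 windows held none of them. They were in 0.00913%, 16.3%, 5.2%, 0.213% and 7.15% of all windows. A match is a description of these letters, not evidence of binding.

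**Figure D1:**
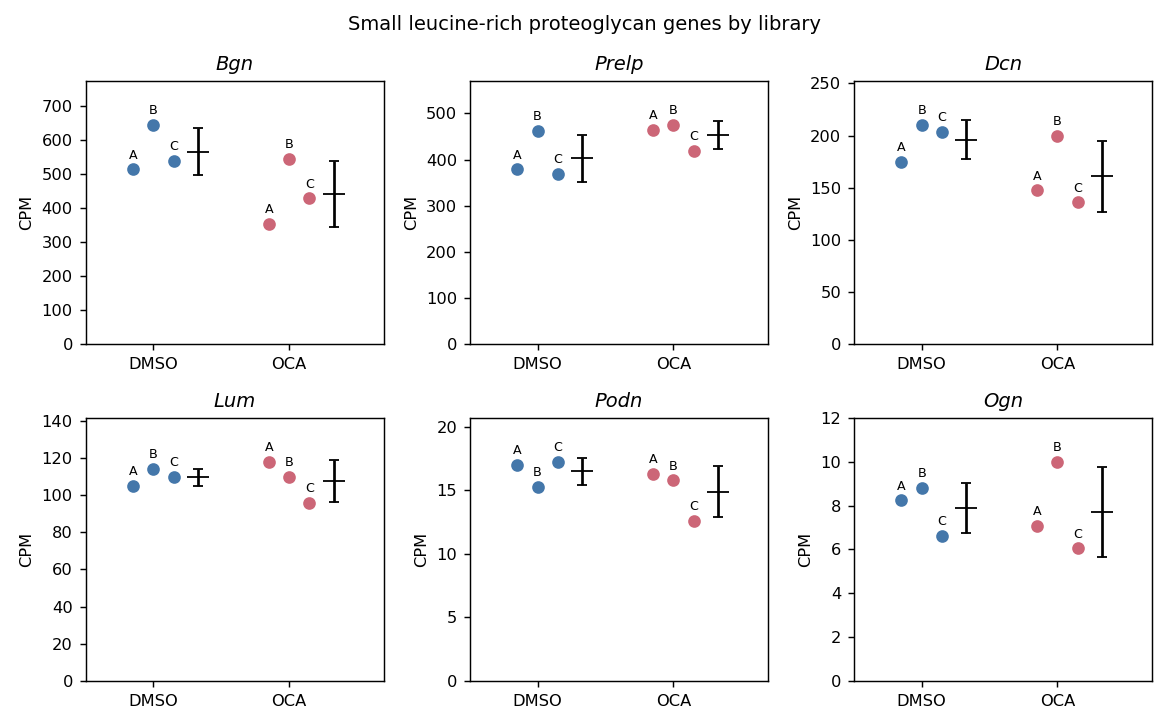
CPM (TMM-scaled) of the 6 tested members in each library, with the replicate letter above each point and the group mean ± SD as a black bar; the vertical axes start at 0 and differ between panels. OCA and DMSO points overlap in all 6 panels, and for Bgn and Dcn the overlap comes from OCA B.

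The comparison addresses how stellate cell transcripts differ after short exposure to an FXR agonist. No member of the family passed the test. The quasi-likelihood test of edgeR, adjusted by Benjamini-Hochberg over all genes, called 0 of the 6 tested members at adjusted p under 0.05, where it called 5.20% of all tested genes, 2.18% higher and 3.03% lower. Offsets for transcript length turned this split, with 378 genes higher and 227 lower against 276 and 384. At an unadjusted p under 0.05 it had 2 members, Bgn and Dcn, both with lower means under OCA, against 19.0% of all genes in either direction. DESeq2 and limma-voom also called 0 members, with 1 and 3 at an unadjusted p under 0.05. The groups overlapped in every tested member, where 23.0% of all tested genes had groups that did not overlap. The median log2 fold change of the 6 was -0.09, against 0.00 over all tested genes. In bulk RNA, fewer cells of a type and less RNA per cell cannot be told apart.

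Bgn encodes biglycan, the class I proteoglycan with a pair of chondroitin or dermatan sulfate chains. It had 514, 645 and 539 CPM in DMSO A, B and C, and 354, 546 and 429 CPM in OCA A, B and C. OCA A and OCA C were below every DMSO library, and OCA B lay within the DMSO range. The means were 566 ± 69.6 CPM in DMSO and 443 ± 96.7 CPM in OCA (SD, n = 3 each), which gave a log2 fold change of -0.35 with SE 0.12 and adjusted p = 0.0878. The 95% interval, not adjusted for the number of genes, ran from -0.60 to -0.11, or 0.661 to 0.926 as a fold. The call turned on OCA B, the highest OCA library: without it the log2 fold change was -0.53 and the adjusted p 0.000454. Leaving out the highest library of a group lowers its mean, so this fit is not separate support for a fall.

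Dcn encodes decorin, which carries 1 chain and binds collagen and TGF-beta. It had 175, 210 and 204 CPM in DMSO A, B and C, and 147, 199 and 136 CPM in OCA A, B and C. As for Bgn, OCA B lay inside the DMSO range, and OCA A and OCA C were below all DMSO libraries. The log2 fold change was -0.28 (SE 0.11, interval -0.50 to -0.06, adjusted p = 0.134). Without OCA B, again the highest OCA library, it was -0.47 (adjusted p = 0.000127), with the same limit as for Bgn.

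Without OCA B, then, 2 of the 6 tested members, Bgn and Dcn, were lower, beside 5.90% of all genes called lower in that fit. Without OCA B and DMSO A together the same 2 were lower, beside 4.75%, with log2 fold changes of -0.60 for Bgn and -0.55 for Dcn. Leaving out any other single library gave Bgn between -0.42 and -0.22 and Dcn between -0.36 and -0.18, with no call. Both values stayed below 0 in all 19 alternatives. The spread behind this was large for genes of this level: the coefficient of variation within OCA was 21.8% for Bgn and 21.0% for Dcn, where 3091 genes between 100 and 1000 CPM had a median of 4.31% and a 90th percentile of 9.64%. Within DMSO it was 12.3% and 9.70%, against a median of 5.24%.

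**Figure D2:**
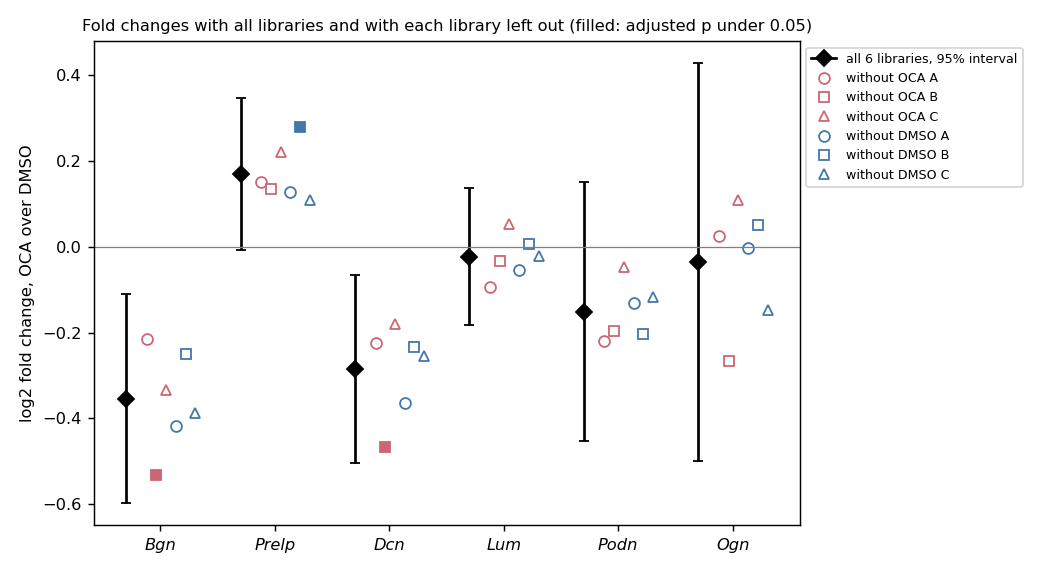
Log2 fold change (OCA over DMSO) of the 6 tested members: diamonds with 95% intervals use all 6 libraries, and coloured symbols leave out 1 library each, filled where the adjusted p was under 0.05. Only 3 symbols are filled, Bgn and Dcn without OCA B and Prelp without DMSO B.

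Prelp encodes a class II protein with a basic, heparin-binding amino terminus that anchors basement membrane to connective tissue. It was the only tested member with a mean above DMSO under OCA. It had 379, 462 and 368 CPM in DMSO A, B and C, and 464, 475 and 419 CPM in OCA A, B and C. DMSO B lay among the OCA libraries, and the other DMSO libraries were below all of them. The log2 fold change was 0.17 (SE 0.09, interval -0.01 to 0.35, adjusted p = 0.287). Without DMSO B it was 0.28 (adjusted p = 0.029), 1 member called higher beside 1.99% of all genes in that fit. DMSO B was the highest DMSO library, so leaving it out lowers the DMSO mean and is not separate support for a rise.

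Lum encodes lumican, a keratan sulfate proteoglycan of collagen-rich tissue. It had 105, 114 and 110 CPM in DMSO A, B and C, and 118, 110 and 95.7 CPM in OCA A, B and C. The OCA libraries lay on both sides of the DMSO libraries. The log2 fold change was -0.02 (SE 0.08, adjusted p = 0.909), and its interval of -0.18 to 0.14 corresponds to folds from 0.882 to 1.10. Leaving out single libraries moved it from -0.09 to 0.05, so its sign was not fixed.

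Podn and Ogn were measured less precisely. Podn encodes podocan, known in mice to restrain growth of smooth muscle cells. It had 17.0, 15.3 and 17.2 CPM in DMSO A, B and C, and 16.3, 15.8 and 12.6 CPM in OCA A, B and C. OCA C was the lowest library and the others intermixed (log2 fold change -0.15, SE 0.14, interval -0.45 to 0.15, adjusted p = 0.614). Ogn encodes osteoglycin, also named mimecan. It had 8.24, 8.82 and 6.60 CPM in DMSO A, B and C, and 7.06, 10.0 and 6.05 CPM in OCA A, B and C. The OCA libraries spanned the whole DMSO range (log2 fold change -0.04, SE 0.22, interval -0.50 to 0.43, adjusted p = 0.952).

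Fmod and Aspn did not pass the filter on low counts and were not tested. Fmod, encoding fibromodulin, a collagen-binding relative of lumican, had 14 counts over the DMSO libraries (8, 5 and 1 in A, B and C) and 11 over the OCA libraries (0, 8 and 3). The depth-scaled ratio was 0.882 with an exact 95% counting interval of 0.362 to 2.09. These counts are thus compatible with ratios across that range, and the interval leaves out spread between libraries. Aspn, encoding asporin, had 0 counts in all 6 libraries, and 3 counts over a group would correspond to 0.0683 CPM in DMSO and 0.0767 CPM in OCA.

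The sum of the family and its makeup were then set side by side. Summed over the 8 members, the level was 1198, 1456 and 1245 CPM in DMSO A, B and C and 1107, 1356 and 1099 CPM in OCA A, B and C, so the groups overlapped. Of the family's CPM per kilobase, Bgn held 45.7% ± 0.945 in DMSO and 40.1% ± 4.45 in OCA (SD, n = 3 each). Prelp held 21.8% ± 1.01 in DMSO and 27.9% ± 2.85 in OCA. In OCA A the 2 shares were closest, at 35.0% for Bgn and 30.8% for Prelp. The ratio of 2 members within a library does not depend on how libraries are scaled. The log2 ratio of Bgn to Prelp counts was 0.44, 0.48 and 0.55 in DMSO A, B and C and -0.39, 0.20 and 0.03 in OCA A, B and C, so every OCA library was below every DMSO library. The ratio of Dcn to Prelp was -1.12, -1.13 and -0.85 in DMSO and -1.65, -1.25 and -1.63 in OCA, with no overlap either. These were the 2 pairs without overlap among the 15 pairs of tested members, and both hold Prelp, so they are not separate results. Each had p = 0.1 in a two-sided exact permutation test, the smallest p that 3 against 3 libraries allow, and p = 0.45 after Benjamini-Hochberg adjustment over the 15. The share of such pairs over all genes was not computed, while among single tested genes 23.0% had groups that did not overlap. Dcn and Bgn, both class I, kept a ratio that overlapped between groups (-1.66 to -1.26 in OCA and -1.62 to -1.40 in DMSO).

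**Figure D3:**
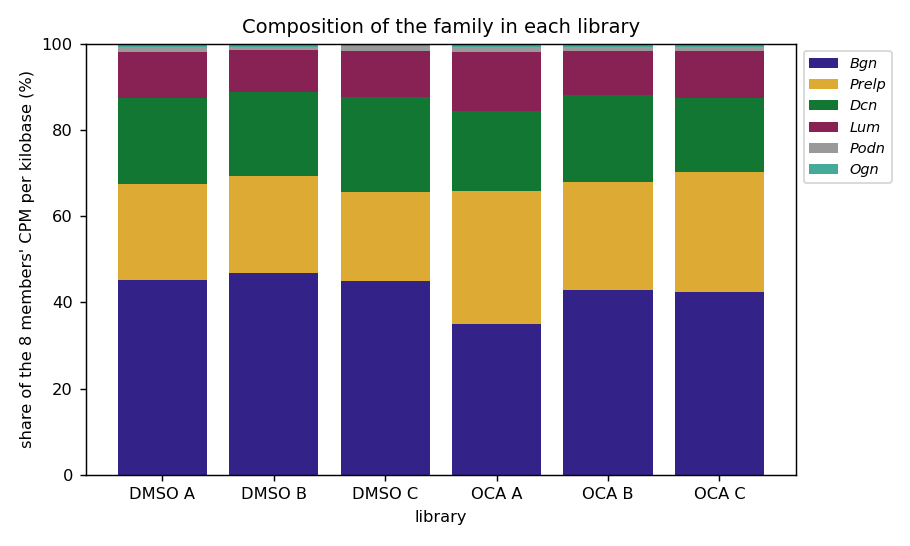
Share of each member in the summed CPM per kilobase of the 8 members, in percent, for each library (Fmod and Aspn are at or near 0 and not drawn). The Prelp share is between 20.7% and 22.5% in the DMSO libraries and between 25.1% and 30.8% in the OCA libraries.

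Bgn, the member highest per kilobase, was followed across libraries by genes outside the family. Likeness was the root mean square difference between centred log2(CPM + 0.5) values over the 6 libraries, among 10734 genes with a mean of at least 5 CPM. The nearest were Ctsb (0.06), which encodes the lysosomal protease cathepsin B, the basement membrane collagen gene Col4a2 (0.06), the endothelin-converting enzyme gene Ece1 (0.07), Bcam (0.08), a laminin receptor gene, and G2e3 (0.09), against a median of 0.30. Of these Ctsb passed the test of OCA against DMSO (log2 fold change -0.36, adjusted p = 0.0409). It did not with DESeq2, robust estimation or offsets for transcript length, or without OCA A, OCA C, DMSO B or DMSO C. These genes were chosen by likeness to Bgn over both groups, so a fold change near that of Bgn follows from the choice. Dcn was the nearest member, at rank 78 (0.14), while Prelp stood at rank 7172 (0.33).

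**Figure D4:**
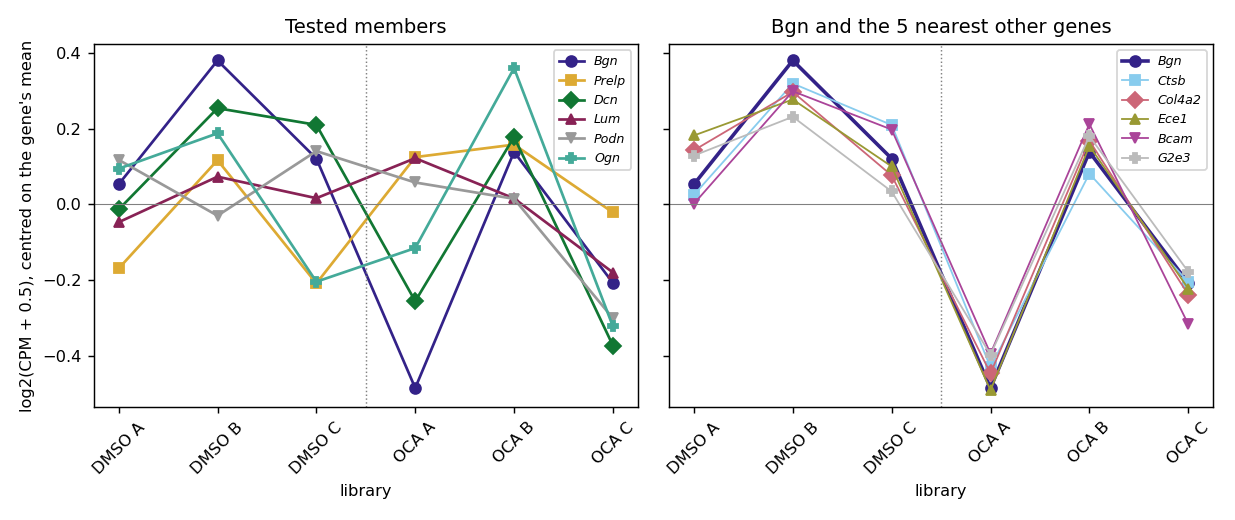
Centred log2(CPM + 0.5) in each library for the 6 tested members (left) and for Bgn with its 5 nearest genes (right); lines only join values of a gene. Bgn and its nearest genes are low in OCA A and OCA C and high in OCA B, while Prelp is lowest in DMSO A and DMSO C.

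Among 10 further genes of the family 4 were tested and 0 passed, and 2 rows, Kera and Epyc, were at 0. Tsku, which encodes the secreted Wnt and BMP modulator tsukushi, was the only one at a high level. It had 161, 164 and 153 CPM in DMSO A, B and C and 120, 168 and 140 CPM in OCA A, B and C (log2 fold change -0.16, SE 0.09, adjusted p = 0.338). As for Bgn and Dcn, OCA A and OCA C lay below the DMSO libraries and OCA B did not. Without OCA B the adjusted p was 0.0117 at a log2 fold change of -0.30, with the same limit as for Bgn. Chadl had 4.98 ± 0.219 CPM in DMSO and 5.15 ± 1.14 in OCA. Ecm2 had 3.31 ± 1.42 and 3.31 ± 0.771, and Nyx 0.681 ± 0.410 and 1.16 ± 0.823. Omd, Optc, Chad and Podnl1 had at most 8.5 counts over a group.

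Genes that build the sugar chains were examined next. Of 7 tested genes for the linker between core protein and chain 0 passed. Of 13 tested chondroitin and dermatan sulfate genes 2 rose and none fell, with a median log2 fold change of -0.06. Over all tested genes 2.18% rose and 3.03% fell. Chst11, the chondroitin 4-O-sulfotransferase, had 85.2, 82.8 and 79.9 CPM in DMSO A, B and C and 110, 120 and 117 CPM in OCA A, B and C. It rose by 0.49 on the log2 scale (SE 0.07, adjusted p = 0.000127), with no overlap. Chst15, which adds a further sulfate to 4-sulfated units, had 160, 161 and 146 CPM in DMSO and 263, 258 and 221 CPM in OCA. It rose by 0.67 on the log2 scale (SE 0.07, adjusted p = 7.1e-06). The epimerase gene Dse, named after its values were seen, makes dermatan from chondroitin and had 313 ± 6.72 and 303 ± 3.18 CPM (adjusted p = 0.747).

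The supply of activated sulfate had 1 of 9 tested genes higher and none lower, beside 2.18% of all genes called higher. Papss2, a synthase of the sulfate donor PAPS, had 275, 302 and 268 CPM in DMSO A, B and C and 406, 378 and 420 CPM in OCA A, B and C. It rose by 0.51 on the log2 scale (SE 0.07, adjusted p = 0.000152). Chst11, Chst15 and Papss2 were called in each of the 19 alternatives. OCA B was the highest of the OCA libraries for Chst11, the middle for Chst15 and the lowest for Papss2. Of 8 tested keratan sulfate genes 1 fell and none rose, beside 3.03% of all genes called lower. Without OCA B 2 were lower, beside 5.90% of all genes in that fit. St3gal1, a sialyltransferase, went from 163 ± 1.59 to 132 ± 10.3 CPM (log2 fold change -0.31, adjusted p = 0.0104), and did not pass with OCA A or OCA C left out or with offsets for transcript length. The related St3gal3 and St3gal2, named after their values were seen, had higher means under OCA without overlap. Neither was called (log2 fold changes 0.32 and 0.16, adjusted p = 0.0623 and 0.193).

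Lysosomal enzymes that degrade the chains had 2 of 10 tested genes lower and none higher, beside 3.03% of all genes called lower. Without OCA B 4 were lower, beside 5.90% of all genes in that fit. The iduronate sulfatase gene Ids had 93.5 ± 2.50 CPM in DMSO and 77.7 ± 2.84 in OCA (log2 fold change -0.27, adjusted p = 0.0274). Hexa, a hexosaminidase subunit gene, had 152 ± 5.38 and 126 ± 10.7 CPM (log2 fold change -0.27, adjusted p = 0.0303). Neither call held in every alternative. That of Ids was lost when any library but OCA B was left out, and with offsets for transcript length. Its log2 fold change stayed between -0.30 and -0.24 with single libraries left out. The call of Hexa was lost when OCA A or C or DMSO B or C was left out. Its log2 fold change was then between -0.34 and -0.22 over all fits with a library left out.

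Among partners of these proteoglycans the collagens they bind had 2 of 10 tested genes lower and none higher, beside 3.03% of all genes lower. All 10 were below 0 (median log2 fold change -0.34), where 6316 of all 12687 tested genes were below 0. So were all 13 tested receptors, 10 of 11 proteases and 9 of 10 breakdown enzymes. Among linker genes 5 of 7 were below 0, among chondroitin and dermatan sulfate genes 9 of 13, and among ligands 8 of 12. Sulfate supply genes had 5 of 9 and keratan sulfate genes 4 of 8. These directions were not counted with offsets for transcript length. The collagen genes called were Col5a2 (log2 fold change -0.56, adjusted p = 0.00617) and Col1a2 (-0.40, adjusted p = 0.0173). Col5a2 was not called without OCA A, and Col1a2 not when OCA A or C or DMSO A or B was left out, and neither passed with robust estimation, nor Col5a2 with DESeq2. Without OCA B 8 of the 10 were lower, beside 5.90% of all genes called lower in that fit. The 12 tested growth factors and matrix ligands had 3 lower (Wisp1, Fgf2 and Fn1) and 2 higher (Bmp2 and Bmp4). Over all tested genes 3.03% were lower and 2.18% higher. The calls of Fgf2, Fn1 and Bmp4 (the last named after its values were seen) were each lost when any single library but OCA B was left out, that of Fn1 also with DESeq2 and robust estimation, and that of Bmp4 also with upper quartile scaling, total counts only and limma-voom, while that of Bmp2 (log2 fold change 0.76, adjusted p = 7.76e-06) held in all 19 alternatives. Wisp1, a CCN family protein known in human to bind decorin and biglycan, fell by 0.77 on the log2 scale (SE 0.08, adjusted p = 6.77e-06), from 114 ± 5.35 to 66.8 ± 9.32 CPM, and was called in each of the 19 alternatives. Of 13 tested receptors 1 fell, the decorin-binding Egfr (134 ± 10.5 to 107 ± 13.8 CPM, adjusted p = 0.0275, not called when OCA A or C or DMSO A or B was left out or with offsets for transcript length). Without OCA B 3 of the 13 were lower. The Toll-like receptor genes Tlr2 and Tlr4, named after their values were seen, had adjusted p = 0.982 and 0.265. Of 11 tested proteases known to process these proteins 1 fell, Adamts1 (log2 fold change -0.39, adjusted p = 0.00298). Its call held in all 19 alternatives. Without OCA B 4 of the 11 were lower. The large proteoglycan Vcan was the 1 tested gene of its list (46.8 ± 2.97 and 38.2 ± 4.31 CPM, adjusted p = 0.085). Its groups did not overlap, as in 23.0% of all tested genes. It was called with every gene that had any count and with the replicate block.

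**Figure D5:**
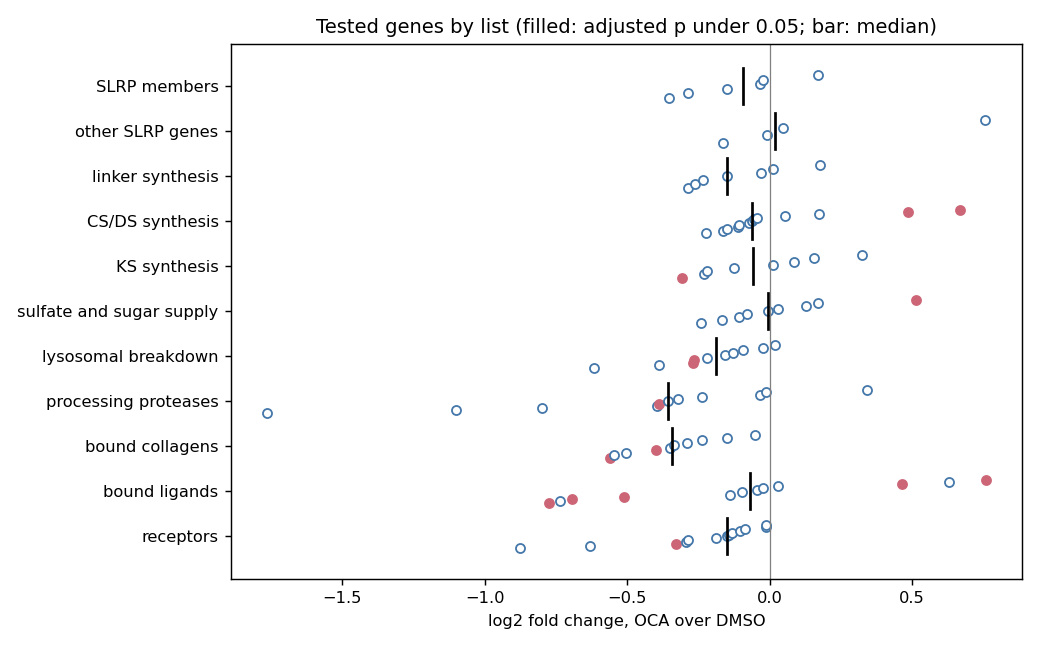
Log2 fold change (OCA over DMSO) of every tested gene in 11 lists, the members, the other family genes and 9 lists of synthesis, breakdown and partner genes (marker lists and large proteoglycans are not drawn); filled red points had an adjusted p under 0.05 and the black bar is the list's median. No member and no other family gene is filled, and the filled points to the right of 0 are Chst11, Chst15, Papss2, Bmp2 and Bmp4. CS, DS and KS are chondroitin, dermatan and keratan sulfate, and SLRP is small leucine-rich proteoglycan.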

How the data were processed

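The authors deposited 1 table with 1 row per gene, each naming a RefSeq transcript with mm10 coordinates and exonic length, per the file headers. The deposited values are unadjusted exon counts in steps of 0.5, per the file headers and name, and were handled like expected counts because they are not all whole. Where the steps of 0.5 come from is not stated in the labels or headers. They were rounded (ties to even) before each test. Per the submitters' processing notes, the tools were STAR and HOMER and the build mm10. Their versions, strand setting and read handling are not given in these sources. Columns were assigned to samples by title, and 0 count columns were left out.

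OCA was compared with DMSO in edgeR 4.0.16 (R 4.3.3) with filterByExpr, TMM scaling, quasi-likelihood fit without robust estimation or block, two-sided, adjusted over 12687 genes with a threshold of 0.05. The SE is the log2 fold change divided by the square root of F. CPM uses TMM-scaled totals of the unrounded counts. Replicate libraries were further apart than counting noise (chi-square per degree of freedom 4.3 to 7.78). Alternatives used DESeq2 1.42.0, limma-voom (limma 3.58.1), other scalings and filters, robust estimation, unrounded counts, a replicate block, offsets for a loess trend on transcript length, and libraries left out. The fit was tested on simulated data.

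The members and gene lists were chosen with earlier results of these data known. All members and family genes are named, and from each other list up to 4 called genes with the smallest p or, with none called, up to 2 with the highest CPM. The 5 genes nearest to the leading member are named too. Not every gene allowed is named. Promoter sequences are RefSeq's (GRCm38.p6), and overlapping genes are from GENCODE M21 of the same build.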

Additional observations from a re-analysis of the deposited data

How the results depend on the processing

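Against 0 members lower, the count was 2 with every gene that had any count, with the replicate block, with the replicate block and length offsets, and without OCA B and DMSO A together (Bgn and Dcn each time), and 1 with total counts only (Bgn). Leaving out single libraries gave 0 to 2 members lower and 0 to 1 higher. DESeq2, limma-voom, robust estimation, upper quartile scaling, DESeq2 size factors, the filter at 5 CPM, unrounded counts and length offsets gave 0 in both directions. Over all genes, 276 were higher and 384 lower. Higher genes numbered 471 with the block and length offsets, and lower genes 703 with every gene that had any count, 227 with length offsets and 605 without OCA B and DMSO A. Leaving out single libraries gave 161 to 363 higher and 104 to 758 lower genes. The causes were not tested. With length offsets 378 genes were higher, so 62.5% of calls were higher, against 41.8% in the reported fit and 54.0% with the block and length offsets. The labels do not state whether replicate letters pair the samples. Over all tested genes, deviations from group means of same-lettered libraries correlated at 0.00, -0.04 and 0.05, and not every library correlated best with its own letter. These correlations cannot decide on pairing for single genes. Library B was the highest in both groups for Dcn, Bgn, Ogn and Prelp, but not for Lum or Podn. The replicate block gave 306 higher and 508 lower genes, and Bgn an adjusted p of 0.0035 and Dcn of 0.022. Of 940 single-gene values under alternatives, over 50 named genes, 836 kept their side of the threshold, 72 lost a call, 32 gained one and 0 called values changed sign. Depth limits Fmod, Aspn, Omd, Optc, Chad and Podnl1, and the spread between OCA libraries limits Bgn and Dcn.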
